A study of Mus musculus with 20 samples.

Results

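Insulin acts on the liver through a short chain of proteins, and 10 genes of this chain were followed in the livers of diabetic mice: Insr, Irs1, Irs2, Pik3r1, Pdpk1, Akt1, Akt2, Ptpn1, Foxo1 and Foxo3. They are 10 of the 18193 genes that the array annotation named singly, and 27 of 34945 probe sets with only 1 listed gene measured them. The genes were chosen by symbol, with earlier results of these data known. Each was read from the probe set with the highest mean signal over the 20 arrays, and its other probe sets served as a check.

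Liver RNA came from male BALB/c mice aged 6 weeks on arrival, with 1 Affymetrix array per mouse and 5 arrays in each of 4 groups out of 6 mice per group. Untreated mice received no injection and, by their label, ate a control diet, with 14 days on diet as in the other groups. The other mice received 1 dose of 185 mg/kg of streptozotocin (STZ), which destroys pancreatic beta cells, into the peritoneum, and those with a non-fasting blood glucose of 330 to 590 mg/dL a week later entered 1 of 3 groups. The STZ group ate the purified AIN93G diet alone for 14 days. The other diabetic mice ate that diet with 0.1% or 0.5% phloridzin, a plant glucoside that blocks sodium-dependent glucose transporters of kidney and gut. Diabetes, a direct action of STZ on the liver, and the injection and its vehicle cannot be told apart, since the untreated mice were not injected. The insulin level and the glucose level at the end were not analysed here, and neither were protein amounts or phosphorylation. All mice had free access to food.

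Insulin binds the insulin receptor, which phosphorylates the adaptor proteins IRS1 and IRS2. These recruit phosphatidylinositol 3-kinase, whose lipid product brings PDK1 and AKT to the membrane, where PDK1 switches AKT on. Active AKT phosphorylates the transcription factors FOXO1 and FOXO3 and so keeps them out of the nucleus. When insulin is low, FOXO proteins enter the nucleus of hepatocytes and act on genes of glucose output, lipid breakdown and growth arrest. The phosphatase PTP1B, encoded by Ptpn1, acts against the receptor. Most of this control is exerted on proteins, which transcript levels do not show.

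Values are signals on a linear scale, set so that the trimmed mean was 100 on every array. Differences are on the log2 scale of the signal plus 16, with a standard error (SE) from the limma model, and folds are derived from them. A gene was called changed at a Benjamini-Hochberg adjusted p below 0.05 over all 12947 genes kept. A signal of 17.1, the highest median of any array, served as the limit below which a signal was read as background. All 10 genes passed the filter on low values, as did 24 of the 27 probe sets, and 22 of the 27 had a mean above the background limit. Within groups, arrays correlated at r from 0.9711 to 0.9853 over 40 pairs. For a typical gene, the 95% interval of a difference reached 0.30 log2 units to either side. That interval is not adjusted for the number of genes, so a call needed a larger difference for such a gene. An uncalled gene may therefore have changed by more than this with 5 mice per group.

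The tissue fitted its label, with 7 of 7 measured hepatocyte markers above background in every group and 0 of 5 skeletal muscle markers. Of other tissues, 2 of 5 pancreas and 1 of 3 adipocyte markers were also above background in every group. The summed hepatocyte marker signal was 66643 to 73250.0 in untreated, 48881 to 68989 in STZ, 63700 to 132749 in 0.1% phloridzin and 58773 to 68202 in 0.5% phloridzin mice. Replicate 4 of the 0.1% group held the highest of these values and stood apart from the others. Markers of stellate cells and fibroblasts were lower in STZ than in untreated livers for 4 of 8 genes (summed signal 1756 to 2748 against 2476 to 3817), those of B and plasma cells for 2 of 5 (97.1 to 167 against 379 to 511), and those of pancreas for 1 of 3 (summed signal of 5 markers 431 to 891 against 1478 to 1972). Among other lists, 1 of 8 Kupffer cell and 1 of 7 endothelial markers were called higher, and 1 of 7 hepatocyte, 1 of 4 cholangiocyte and 1 of 3 T and NK cell markers lower. The shares over all genes kept were 6.9% higher and 6.89% lower, so a single call in such a short list says little. The part of these cell types in the results below was not tested. In bulk RNA, fewer cells of a type and less RNA per cell cannot be told apart.

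For orientation, 250 bases before the annotated start of 3 genes are shown: Foxo3, the only gene of the 10 that was called changed, its relative Foxo1, and Igfbp1, a secreted binding protein of insulin-like growth factors and a textbook FoxO target of the hepatocyte. The sequences are from RefSeq on build GRCm38.p6, 5′ to 3′ in the direction of transcription. Capitals in the Igfbp1 window mark CAAAACA, the core of its insulin response element, which a search of both strands placed 108 bases before the start. The Foxo3 window is chr10:42276696-42276945 on the minus strand, the Foxo1 window chr3:52268087-52268336 on the plus strand and the Igfbp1 window chr11:7197537-7197786 on the plus strand.
Foxo3: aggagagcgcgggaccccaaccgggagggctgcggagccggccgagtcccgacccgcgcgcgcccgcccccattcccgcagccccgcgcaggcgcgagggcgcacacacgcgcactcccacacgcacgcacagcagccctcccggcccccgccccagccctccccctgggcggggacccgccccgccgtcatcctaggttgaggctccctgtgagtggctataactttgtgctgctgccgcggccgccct
Foxo1: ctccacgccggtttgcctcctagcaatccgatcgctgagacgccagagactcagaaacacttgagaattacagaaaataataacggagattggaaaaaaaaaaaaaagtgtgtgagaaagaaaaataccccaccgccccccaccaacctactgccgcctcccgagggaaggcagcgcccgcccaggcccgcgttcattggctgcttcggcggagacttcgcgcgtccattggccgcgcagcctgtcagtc
Igfbp1: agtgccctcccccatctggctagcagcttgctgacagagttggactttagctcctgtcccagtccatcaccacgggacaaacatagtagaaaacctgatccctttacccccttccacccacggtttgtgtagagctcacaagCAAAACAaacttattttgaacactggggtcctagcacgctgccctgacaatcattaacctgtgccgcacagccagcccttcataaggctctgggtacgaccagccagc

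The letters CAAAACA were present in 5.56% of all 32851 RefSeq windows of this length and in 2 of 15 windows of the 9 genes that had one, those of Irs1 and Irs2. The letters GTAAACA, a FoxO consensus, were present in 3.17% of all windows and in 1 of the 15, a window of Akt1. Neither string was found in the Foxo3 or Foxo1 windows, which differ in base composition: G and C make up 76.4% of the Foxo3 window and 56.0% of the Foxo1 window. These matches are descriptions of the letters in a window, and 15 windows are too few to set against the background shares.

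In STZ-injected diabetic mice 1 of the 10 transcripts differed from uninjected mice. Foxo3 rose, while the receptor, its adaptors, the kinase subunits and Foxo1 did not pass the test. Over all genes 13.8% were called in this comparison, 6.9% as higher and 6.89% as lower, so 1 call among 10 genes is near the background of the liver as a whole. These were 893 genes higher and 892 lower, or 1138 and 509 when each array was centred on its median, and Foxo3 was called under both scalings. Of the genes, 7 had a higher and 3 a lower mean on the log2 scale in STZ than in untreated mice, with a median difference of 0.17 against −0.05 over all genes kept. At an unadjusted p below 0.05 there were 2 of 10, Foxo3 and Foxo1, beside 28.4% of all genes.

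Foxo3 encodes a FOXO factor linked to autophagy, stress resistance and growth arrest. In the untreated livers its signals were 179, 140.2, 173, 147 and 189. STZ livers gave 399, 259.7, 276, 492 and 305, each above every untreated liver. With 0.1% phloridzin the signals were 235, 295, 307, 289 and 263, and with 0.5% phloridzin 264, 169, 248, 193 and 355. Thus 14 of the 15 diabetic mice lay above the highest untreated mouse, and the exception was replicate 2 of the 0.5% group.

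The group means of Foxo3 were 166 ± 20.9 in untreated, 346 ± 97.8 in STZ, 278 ± 28.8 in 0.1% and 246 ± 72.4 in 0.5% phloridzin mice (SD, n = 5 each). Foxo3 was higher in STZ than in untreated mice by 0.97 ± 0.17 log2 units (SE, 95% interval 0.60 to 1.33), which is 1.95-fold, with a limma adjusted p of 0.00115. By p it ranked 210 among 12947 genes. Foxo3 remained called under each of 30 alternative analyses, among them leaving out each of the 20 arrays in turn, with differences of 0.70 to 1.05 and adjusted p of 0.000405 to 0.00454. The 2 groups of Foxo3 values did not overlap, which was so for 12.9% of all genes.

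Both diabetic groups on phloridzin were also compared with the same untreated mice, so the 3 comparisons share their controls. In the 0.1% group, Foxo3 was 0.70 ± 0.17 log2 units above untreated (SE, interval 0.33 to 1.06), 1.62-fold, with a limma adjusted p of 0.00955 in a comparison that called 16.7% of all genes. Here too the values did not overlap with untreated, as was so for 13.2% of all genes. Without replicate 4 of that group the difference was 0.68 (limma adjusted p = 0.0234). In the 0.5% group the difference was 0.49 ± 0.17 (interval 0.13 to 0.86), 1.41-fold, and missed the threshold at a limma adjusted p of 0.0682, where 12.7% of all genes were called. That last call turned on single arrays: it passed without replicate 2 (0.61, adjusted p = 0.0203) or replicate 4 (0.56, adjusted p = 0.0485) of the 0.5% group, and without replicate 4 of the STZ group (0.49, adjusted p = 0.0460), which changes the estimate of the spread alone. It also passed when the probe sets of each gene were averaged (0.35, adjusted p = 0.0437).

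**Figure D1:**
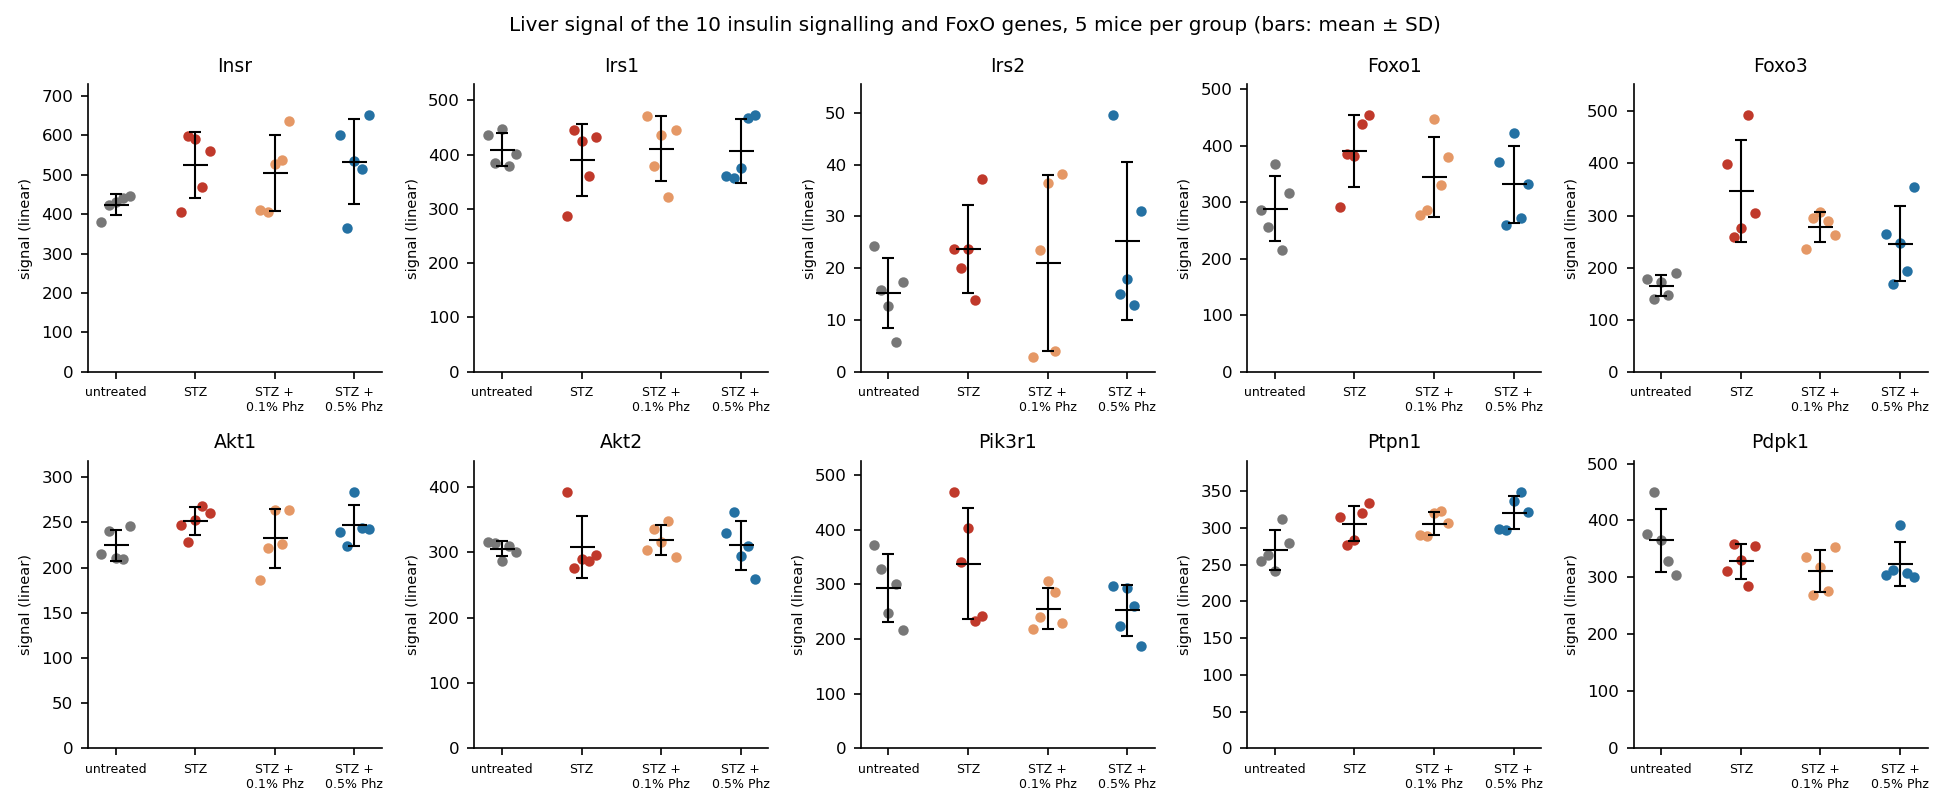
Signal of the chosen probe set of each of the 10 genes in every mouse, 1 panel per gene, on a linear axis that starts at 0. Points are mice, bars are the mean ± SD, and the groups are untreated, STZ, and STZ with 0.1% or 0.5% phloridzin (Phz). Foxo3 is the only panel in which all 5 STZ mice (259.7 to 492) lie above all 5 untreated mice (140.2 to 189).

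A second probe set of Foxo3, 1434832_at, was designed on the same source transcript as the main one, so the pair is not independent. It read 155, 111, 109.5, 142 and 162 in untreated and 217, 243, 240.0, 199 and 229.8 in STZ livers, again without overlap. Its values were 176, 181, 223, 234 and 226 with 0.1% and 242, 156, 213, 183 and 269 with 0.5% phloridzin. All 5 mice of the 0.1% group and 4 of 5 of the 0.5% group were above the highest untreated mouse. In a fit over all probe sets, its differences from untreated were 0.68 ± 0.14 (SE) for STZ (limma adjusted p = 0.00320), 0.57 for 0.1% (0.00983) and 0.58 for 0.5% phloridzin (0.0109), so all 3 diabetic groups were called. The third probe set of Foxo3 had a mean signal of 7.15, below background, and gave no value.

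Foxo1 encodes the FOXO factor best known for hepatic glucose output. Its signals were 287, 256, 368, 216 and 316 in untreated and 291, 386, 383, 439 and 454 in STZ livers. Phloridzin-fed mice gave 277, 286, 448, 329.9 and 379.6 at 0.1% and 371, 260.3, 423, 273 and 332 at 0.5%. Of the 5 STZ mice, 4 were above the highest untreated mouse, and replicate 1 was inside the untreated range.

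The Foxo1 means were 289 ± 57.9, 391 ± 63.8, 344 ± 70.8 and 332 ± 68.0 in that order of groups (SD, n = 5 each). STZ and untreated livers differed by 0.42 ± 0.16 log2 units (SE, interval 0.08 to 0.76), 1.34-fold, with an unadjusted p of 0.0176 and a limma adjusted p of 0.0916. Without replicate 1 of the STZ group the value was 0.52 and was called (limma adjusted p = 0.0385). Differences from untreated were 0.24 (adjusted p = 0.342) for 0.1% and 0.19 (adjusted p = 0.496) for 0.5% phloridzin. The 2 further probe sets of Foxo1 above background, from the same source transcript as the main one, gave 0.50 (limma adjusted p = 0.194) and 0.39 (0.127) for STZ against untreated. The largest of their values, 0.63 for 0.1% phloridzin against untreated, had an adjusted p of 0.0836.

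Foxo3 and Foxo1 were set against each other within each mouse. The log2 level of Foxo3 minus that of Foxo1 was −0.73 ± 0.19 in untreated and −0.19 ± 0.46 in STZ mice (SD, n = 5 each), a shift of 0.54. The exact two-sided permutation test over 252 splits gave p = 0.0238, and 0.286 after adjustment over the 12 such tests of 3 gene pairs. One pair alone at its most extreme split would adjust to 0.0952, so the adjusted test could not have passed a single such difference. The other pairs gave shifts of 0.43 for Irs2 minus Irs1 (exact p = 0.103, adjusted 0.619) and −0.15 for Akt2 minus Akt1 (exact p = 0.206, adjusted 0.643) between STZ and untreated mice. Of the 12 tests 0 passed after adjustment, and the smallest possible p of each is 0.00794.

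Insr encodes the insulin receptor. Untreated livers lay close together at 381, 423, 431, 441 and 446. The diabetic livers spread more widely, with 405, 599, 590.5, 469.6 and 561 in the STZ group, 411, 407, 528, 538 and 637 at 0.1% and 602, 366, 535, 515 and 651 at 0.5% phloridzin. Of 15 diabetic mice, 11 were above the highest untreated mouse, 3 were within the untreated range and 1 was below it.

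The mean of Insr was 424 ± 25.8 in untreated, 525 ± 84.5 in STZ, 504 ± 96.9 in 0.1% and 534 ± 108 in 0.5% phloridzin mice (SD, n = 5 each). Its difference from untreated was 0.28 ± 0.15 (SE, interval −0.03 to 0.59, limma adjusted p = 0.218) in STZ, 0.22 (adjusted p = 0.332) in 0.1% and 0.30 (adjusted p = 0.201) in 0.5% phloridzin mice, and none of the 3 passed. The low value of replicate 2 decided the call in the 0.5% group, since without it the difference was 0.42 with a limma adjusted p of 0.0390. The 2 other Insr probe sets had means of 14.7 and 10.9, below background, so the receptor rests on a single probe set.

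Ptpn1, whose product removes phosphate from the receptor, varied least among mice of a group: its residual SD of 0.11 log2 units was at the 2.67th percentile of all genes. It read 255, 263, 241, 312 and 279.5 in untreated, 315, 277, 284, 320.4 and 333 in STZ, 291, 289, 321, 323 and 307 at 0.1% and 299, 298, 336, 349 and 322 at 0.5% phloridzin. No diabetic mouse fell below the untreated range, and 8 of 15 lay above it.

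Ptpn1 differed from untreated by 0.17 ± 0.09 in STZ (SE, limma adjusted p = 0.195), by 0.18 in 0.1% (adjusted p = 0.175) and by 0.24 ± 0.09 (interval 0.06 to 0.42) in 0.5% phloridzin mice, the last 1.18-fold with an adjusted p of 0.0741. Without replicate 4 of the untreated group, its highest, the 0.5% difference was 0.29 and passed (limma adjusted p = 0.0409). It also passed under a stricter filter on low values, at an adjusted p of 0.0480. The second Ptpn1 probe set, 1438670_at, gave −0.02, 0.04 and 0.06 in these 3 comparisons and so did not show the same shift.

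The adaptors IRS1 and IRS2 carry the signal from the receptor. Irs1 read 435, 384, 447, 378 and 400.4 in untreated and 288, 445, 426, 360.3 and 432 in STZ livers. With phloridzin it read 471, 378, 436, 323 and 445 at 0.1% and 360.1, 357, 375, 468 and 472 at 0.5%. The groups overlapped throughout, with means of 409 ± 30.9, 390.1 ± 66.1, 411 ± 59.98 and 407 ± 58.4 (SD, n = 5 each). The STZ difference of −0.08 ± 0.13 (SE, interval −0.34 to 0.19, limma adjusted p = 0.731) leaves room for a change of either sign of that size.

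Irs2, a gene that FOXO proteins are known to switch on in the liver, was read near background by its only probe set. Signals were 24.2, 15.8, 12.7, 5.75 and 17.2 in untreated and 23.8, 20.1, 23.6, 13.9 and 37.2 in STZ livers, against the background limit of 17.1. Phloridzin-fed mice gave 2.83, 23.5, 36.4, 3.93 and 38.2 at 0.1% and 49.5, 15.0, 17.9, 12.9 and 31.1 at 0.5%. Only 12 of the 20 arrays exceeded the limit, and the untreated mean of 15.1 ± 6.74 (SD, n = 5) lay below it. The residual SD of 0.50 was at the 96.9th percentile of all genes, and the STZ difference of 0.35 ± 0.28 (SE, limma adjusted p = 0.445) had an interval of −0.24 to 0.95. These values can show neither a rise nor its absence for Irs2.

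Pik3r1 encodes the p85 regulatory subunit of phosphatidylinositol 3-kinase. Its signals were 372, 328, 247, 300.3 and 217 in untreated and 469, 341, 403, 232 and 243 in STZ livers. At 0.1% phloridzin they were 218, 239, 305, 286 and 229, and at 0.5% 297, 224, 293, 259.6 and 187. In the STZ group 3 mice exceeded all 10 phloridzin-fed mice, and the other 2 lay among them.

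Pik3r1 in STZ livers differed from untreated by 0.17 ± 0.18 (SE, limma adjusted p = 0.574). Phloridzin-fed mice had lower means than STZ mice by −0.34 ± 0.18 at 0.1% (interval −0.72 to 0.04, unadjusted p = 0.0741, adjusted p = 0.921) and by −0.37 ± 0.18 at 0.5% (interval −0.75 to 0.01, unadjusted p = 0.0563, adjusted p = 0.996). The 3 further probe sets, which share 1 source transcript, gave −0.42, −0.14 and −0.03 for 0.1% and −0.44, −0.10 and −0.20 for 0.5%. The first of these was as large as the main probe set, and the other 2 were smaller.

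Pdpk1 encodes PDK1, the kinase that activates AKT. It read 376, 450.4, 366, 329.7 and 303 in untreated, 311, 359, 331, 285 and 355 in STZ, 336, 269, 318, 276 and 354 at 0.1% and 305, 314, 391, 308 and 301 at 0.5% phloridzin. None of the 15 diabetic mice exceeded the highest untreated mouse, 11 were within the untreated range and 4 below it. The differences from untreated were −0.14 ± 0.11 (SE), −0.22 and −0.16 (limma adjusted p = 0.443, 0.194 and 0.383). A second probe set, 1416501_at, had the opposite sign at 0.06, 0.15 and 0.30 (adjusted p = 0.854, 0.573 and 0.259), so the direction of Pdpk1 is not settled.

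Akt1 and Akt2 encode 2 forms of AKT, of which AKT2 is the form most tied to insulin action on metabolism. Akt2 read 316, 315, 287, 309.8 and 301 in untreated, 393, 275, 289.6, 287 and 296 in STZ, 303, 336, 316, 348 and 293 at 0.1% and 329, 361, 294, 309 and 259 at 0.5% phloridzin. Its STZ difference was 0.00 ± 0.10 (SE, interval −0.21 to 0.21, limma adjusted p = 1.00). Of the 2 other Akt2 probe sets, 1421324_a_at gave −0.12 (limma adjusted p = 0.643), inside that interval. The other, 1455703_at, with a mean of 31.8, gave 0.30 (limma unadjusted p = 0.0396, adjusted p = 0.170), outside it. On the main probe set, replicate 1 of the STZ group stood above all other arrays.

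The main Akt1 probe set read 215, 241, 210.3, 209.9 and 246 in untreated, 248, 228, 253, 269 and 260.4 in STZ, 186, 221, 264, 227 and 264 at 0.1% and 239, 224, 284, 244 and 243 at 0.5% phloridzin. Its difference from untreated was 0.15 ± 0.10 (SE, limma adjusted p = 0.312) in STZ and 0.04 (adjusted p = 0.828) in 0.1% phloridzin mice. A second Akt1 probe set, 1425711_a_at, disagreed. It read 96.8, 90.8, 88.2, 86.7 and 58.3 in untreated and 127, 141, 124, 135 and 132 at 0.1% phloridzin, without overlap, a difference of 0.57 ± 0.14 (SE, limma adjusted p = 0.0103). Its values in the STZ group were 138, 73.5, 119, 114 and 111 (0.33, adjusted p = 0.135) and in the 0.5% group 122, 115, 83.9, 120.3 and 87.2 (0.28, adjusted p = 0.225). Another Akt1 probe set, with a mean of 24.8, was lower in STZ than in untreated livers by −0.32 (adjusted p = 0.168). Which of the 3 stands for the Akt1 transcript was not tested.

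**Figure D2:**
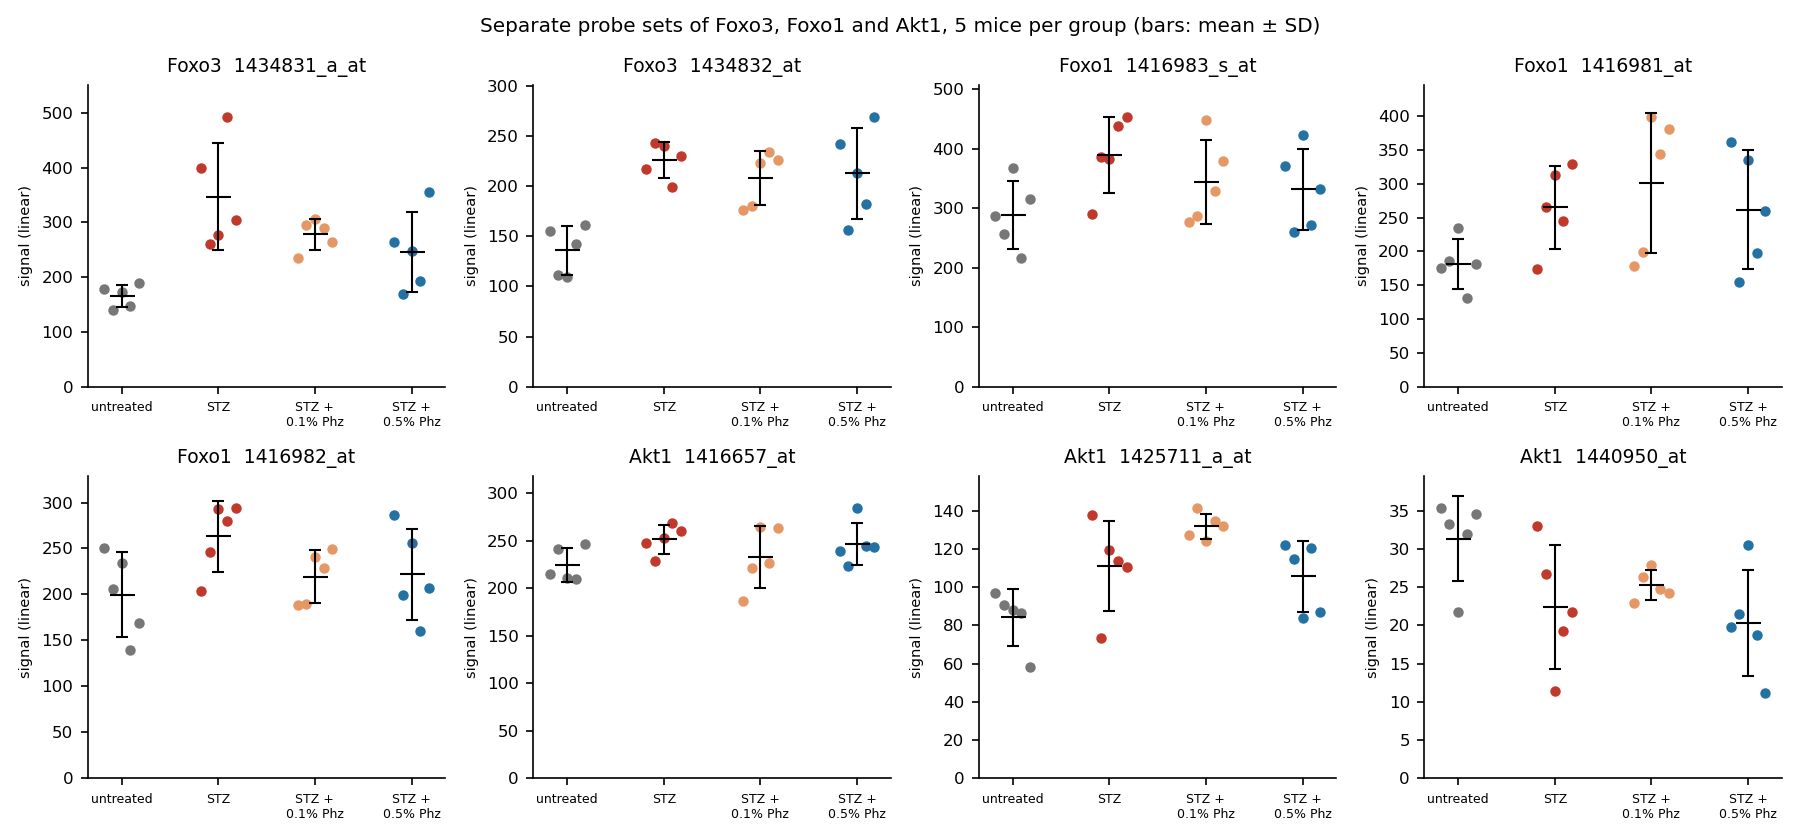
Signal of each probe set above background for Foxo3 (2), Foxo1 (3) and Akt1 (3), on linear axes from 0, in 5 mice per group. Points are mice and bars are the mean ± SD; Phz is phloridzin. In both Foxo3 panels all STZ mice lie above all untreated mice, whereas the 3 Akt1 panels differ from each other in the order of the groups.

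Phloridzin changed none of the 10 genes detectably. Against STZ mice, 0 of 10 were called at 0.1% and 0 at 0.5%, and 0 between the 2 doses. With limma the same 3 comparisons called 0% of all 12947 genes, so a count of 0 among 10 is the background. At an unadjusted p below 0.05 the counts were 0, 1 and 0 of the 10 genes, beside 5.29%, 4.8% and 6.49% of all genes.

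The gene below that limit was Foxo3. Its mean was lower in 0.5% phloridzin than in STZ mice by −0.47 ± 0.17 log2 units (SE, interval −0.84 to −0.11, unadjusted p = 0.0133, limma adjusted p = 0.985), and lower in 0.1% phloridzin than in STZ mice by −0.27 ± 0.17 (interval −0.63 to 0.10, unadjusted p = 0.140, adjusted p = 0.936). These 2 comparisons share the STZ mice. The second Foxo3 probe set gave −0.10 (unadjusted p = 0.475) and −0.12 for the same comparisons. A return of Foxo3 towards the untreated level was therefore not shown, and the interval of the main probe set does not exclude one. Between the doses Foxo3 differed by −0.20 (interval −0.57 to 0.16, adjusted p = 0.863).

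Intervals for the other genes are those of the main probe set. For 0.5% phloridzin against STZ, Insr had an interval of −0.30 to 0.32, Irs1 of −0.20 to 0.33, Akt1 of −0.23 to 0.17, Akt2 of −0.20 to 0.22, Ptpn1 of −0.11 to 0.25 and Pdpk1 of −0.25 to 0.21. Foxo1 had one of −0.57 to 0.11. A change of 1 log2 unit in either direction was outside each of these intervals. The dim Akt2 probe set 1455703_at gave −0.34 (unadjusted p = 0.0210, adjusted p = 0.999), outside the interval of the main one. Irs2 had an interval of −0.58 to 0.60, but at its level halving the STZ signal would move the value by only −0.51, so the interval holds such a change.

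**Figure D3:**
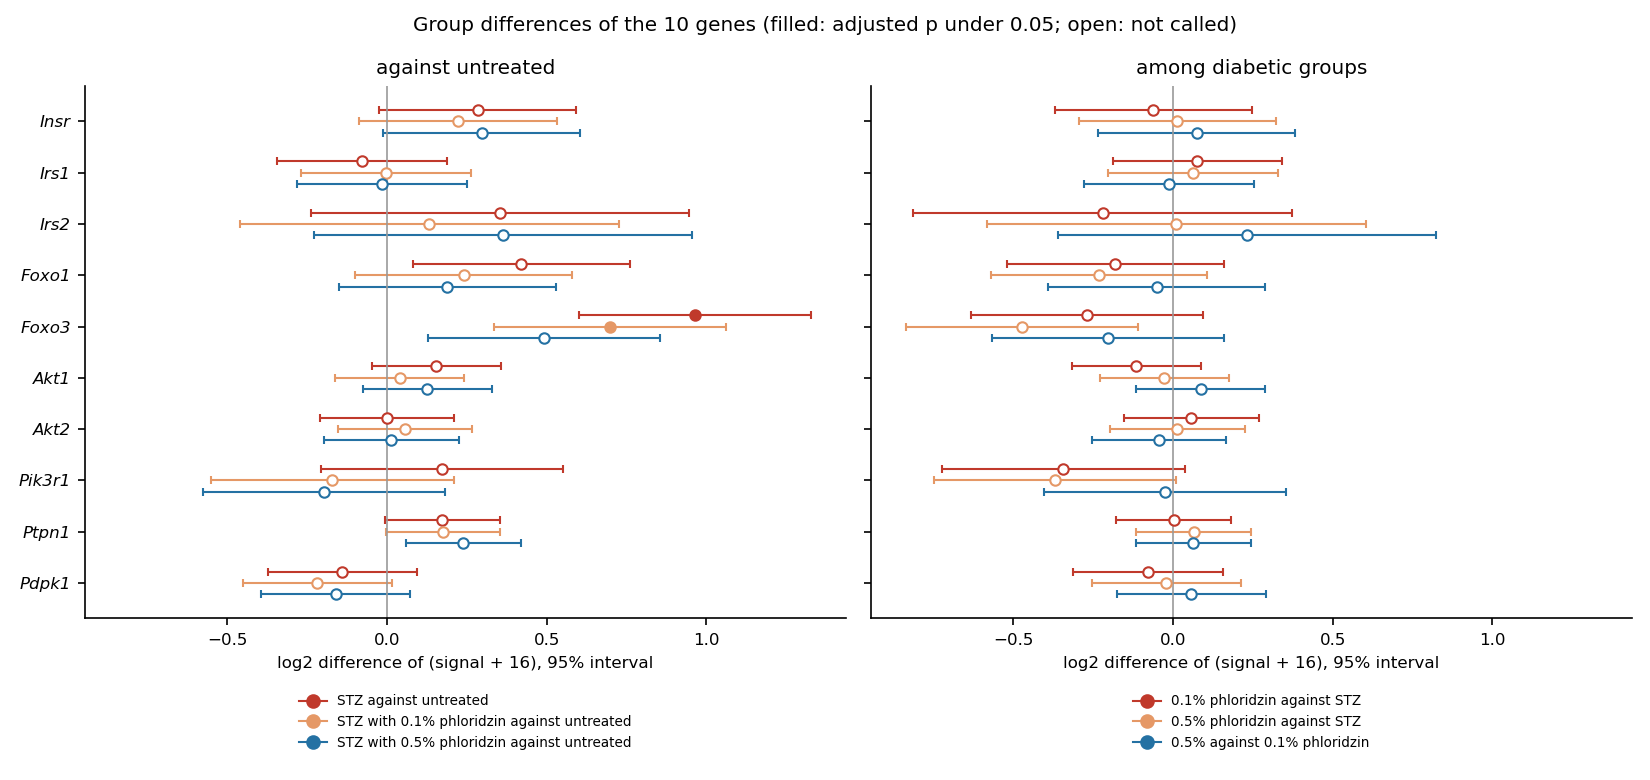
Log2 differences of the 10 genes with 95% intervals from the limma model, on the left for the 3 diabetic groups against untreated and on the right for the 3 comparisons among diabetic groups. Filled points were called, open ones not, and Foxo3 against untreated in the STZ group, at 0.97 (0.60 to 1.33), lies farthest from 0.

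Mice of a group also differed from each other in a joint way for a pair of these genes, a comparison made after the values were seen. With group means removed, Irs1 and Akt2 were correlated over the 20 mice at Pearson r = −0.80 (permutation p within groups = 0.00087, 0.0391 adjusted over 45 pairs) and Spearman rho = −0.76 (permutation p = 0.00119, adjusted 0.0535). On the main probe sets, mice with a high Irs1 signal had a low Akt2 signal. Without the 2 mice farthest from the median of Irs1 the r was −0.67, and after quantile normalization of all arrays it was −0.81. Replicate 1 of the STZ group, with the lowest Irs1 (288) and the highest Akt2 (393) of all mice, was 1 extreme of this relation. In that mouse the Akt2 probe set 1421324_a_at read 181, the highest of the STZ group, and 1455703_at read 25.5, the lowest. These Akt2 probe sets were not part of the correlations, so the relation rests on the main probe set. Next in order were Insr with Akt2 at r = −0.66 (adjusted permutation p = 0.171; −0.40 without the 2 mice farthest from the median) and Foxo1 with Akt1 at 0.59 (adjusted 0.188). Insr and Foxo1 gave 0.54 (adjusted permutation p = 0.283).

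**Figure D4:**
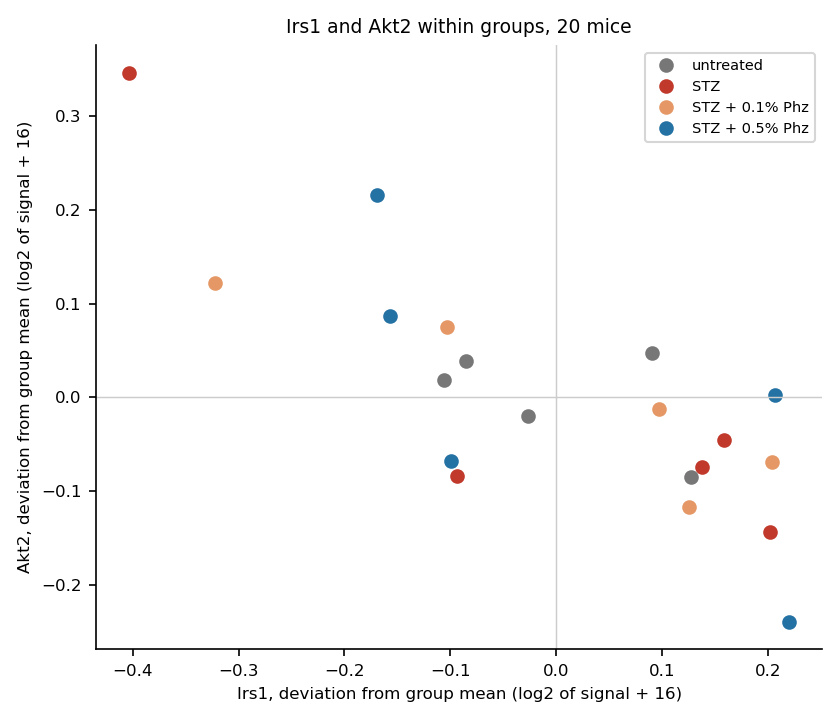
Akt2 against Irs1 in the 20 mice, both from the main probe set and as log2 differences from the mean of the mouse's own group, with colours for the 4 groups. Points run from upper left to lower right, at Pearson r = −0.80.

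Among all genes kept, those with the pattern most like that of Foxo3 over the 20 arrays were Sertad1, Sqor and Dcxr, by the root mean square of the log2 difference after each gene was centred on its own mean. Sertad1, a transcriptional coregulator linked to the cell cycle, had a distance of 0.24, while Foxo3 itself spread with an SD of 0.45. Its signal was 149.8 ± 24.7 in STZ and 78.8 ± 15.2 in untreated mice (SD, n = 5 each). Sqor, a mitochondrial enzyme of sulfide oxidation, had a distance of 0.25 and signals of 2392 ± 295 and 1579 ± 124. Dcxr, a reductase of sugars and dicarbonyls, had a distance of 0.25 and signals of 1898 ± 282 and 978 ± 121. These genes were chosen on the same arrays, so their higher STZ means follow from the choice.

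The wider pathway was described with 7 lists of genes that hold none of the 10. The lists were chosen with earlier results of these data known, so the shares below are descriptions and not a test. Of their 104 measured genes, 10 were called higher and 14 lower in STZ than in untreated livers, 23.1% beside the 13.8% of all genes. The share was 21.2% for 0.1% phloridzin against untreated (13 higher, 9 lower), beside 16.7% of all genes, and 14.4% for 0.5% (9 higher, 6 lower), near the 12.7% of all genes. It was 0 in the comparisons of phloridzin with STZ. Single arrays or settings decided part of these calls: 12 of the 24, 12 of the 22 and 9 of the 15 were called under all 30 alternatives, and 0 changed sign. Of the 24 calls in STZ mice, 13 were left without replicate 4 or without replicate 5 of the STZ group and 14 without replicate 1 of the untreated group. Of the 22 at 0.1% phloridzin, 13 were left without replicate 1 of the untreated group, and 14 without its replicate 3 or without replicate 4 or 5 of the 0.1% group.

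At the receptor and adaptor level, 1 of 12 genes was called higher in STZ livers, with a list median of 0.03. This was Ptpn11, the phosphatase SHP2, at 444 ± 50.1 against 348 ± 44.0 (1.27-fold, limma adjusted p = 0.0412), a call lost in 9 of the 30 alternatives. In 0.5% phloridzin mice Gab1, a docking protein for SHP2 and phosphatidylinositol 3-kinase, rose 1.62-fold over untreated (145 ± 45.7 against 80.4 ± 15.5, adjusted p = 0.0122). Of the enzymes around phosphatidylinositol 3-kinase, PDK1 and AKT, 1 of 11 was called higher and 0 lower. Sgk1, a kinase activated by PDK1 as AKT is, rose from 230.5 ± 33.0 to 456 ± 122 (1.86-fold, adjusted p = 0.00976). It was also higher than untreated at 0.1% (1.78-fold) and 0.5% phloridzin (2.01-fold).

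Among 15 brakes on the cascade, 0 were called higher and 1 lower in STZ livers. Grb10, an adaptor that binds and inhibits the receptor, fell from 89.0 ± 26.3 to 58.7 ± 7.96 (limma adjusted p = 0.0273), 1.38-fold, and this call was lost in 7 of the 30 alternatives. It was also lower than untreated at 0.1% (1.45-fold) and 0.5% phloridzin (1.58-fold, adjusted p = 0.00336), where 0 alternatives lost it. Trib3, a pseudokinase that binds AKT, was called higher at 0.1% phloridzin alone (1.83-fold, adjusted p = 0.0296, lost in 6 alternatives) and had a difference of 0.59 in the STZ group (adjusted p = 0.154).

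In the mTORC1 and GSK3 branch, 1 of 15 genes was called higher and 1 lower. Sesn2, a stress-induced inhibitor of mTORC1, rose from 48.2 ± 7.07 to 125 ± 16.4 (2.20-fold, limma adjusted p = 2.47e-06). It was 1.94-fold above untreated at 0.1% and 1.96-fold at 0.5% phloridzin. Rheb, the small GTPase that activates mTORC1, was lower at 942 ± 107 against 1172 ± 62.0 (1.25-fold, adjusted p = 0.0490), a call that 19 of 30 alternatives lost. At 0.1% phloridzin Rheb was lower by 1.33-fold and its inhibitor Tsc2 higher by 1.30-fold (adjusted p = 0.0112 and 0.00750). Ddit4, another stress-induced inhibitor of mTORC1, was called in the 0.5% group (3.35-fold, adjusted p = 0.0336), with 9 alternatives losing it.

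Of 13 relatives and cofactors of FOXO proteins, 1 was called higher and 2 lower in STZ livers, and these calls held in every alternative in which the gene was tested. Ppargc1a, the coactivator PGC-1α that works with FOXO1 in gluconeogenesis, rose from 40.2 ± 4.60 to 147 ± 49.99 (2.76-fold, limma adjusted p = 0.00265). Foxa1, a forkhead factor of liver development, fell from 210.5 ± 13.2 to 116 ± 28.2 (1.75-fold, adjusted p = 0.000249). Skp2, a ubiquitin ligase subunit that acts on FOXO1, fell from 36.4 ± 8.26 to 19.5 ± 4.09 (adjusted p = 0.00978). Its STZ signals of 14.5 to 25.9 lay around the background limit of 17.1. The size of this fall is therefore uncertain, at −0.86 to −0.36 log2 units over the alternatives. Foxo4, the only FOXO gene of this list that was measured, read 101 ± 20.8 against 99.4 ± 16.8 (0.01, adjusted p = 0.964).

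Of the genes listed as FoxO targets that rise when insulin is low, 6 of 25 were called higher and 6 lower, with a list median of 0.12. Over the 30 alternatives 3 to 7 were called higher and 3 to 7 lower. The higher ones were Cdkn1a (3.93-fold), Igfbp1 (3.35-fold), Bnip3 (1.83-fold), Klf15 (1.74-fold), Pnpla2 (1.71-fold) and Trib1 (1.42-fold), of which Trib1 lost its call in 11 alternatives and Klf15 in 3. Cdkn1a, the cell cycle inhibitor p21, rose from 154 ± 52.2 to 677 ± 268 (limma adjusted p = 0.000112). Igfbp1, whose upstream sequence is printed above, rose from 998 ± 294 to 3875 ± 1834 (adjusted p = 0.0392), a call that 11 of 30 alternatives lost. Bnip3 serves mitophagy and Pnpla2 is the main triglyceride lipase of adipose tissue and liver.

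The 6 lower genes were Angptl8 (2.86-fold), Bcl6 (2.44-fold), Ccng2 (1.66-fold), Cdkn1b (1.41-fold), Mttp (1.32-fold) and Cat (1.28-fold). Mttp, Cat and Cdkn1b lost their calls in 8, 8 and 9 of the 30 alternatives, median centring among them for each. Angptl8 is a secreted factor that insulin raises, so the name of the list does not describe it. Without it 6 of 24 were higher and 5 lower, with a median of 0.16. Bcl6, a transcriptional repressor, fell from 688 ± 104 to 279 ± 87.2 (limma adjusted p = 0.00182) and was 133 ± 51.5 in 0.5% phloridzin mice, 4.97-fold below untreated (adjusted p = 4.90e-06). Pck1 and G6pc, the gluconeogenic targets for which FOXO1 is best known, had STZ differences of 0.41 (adjusted p = 0.135) and 0.49 (adjusted p = 0.191). Pck1 was called in 0.1% phloridzin mice, 1.47-fold above untreated at an adjusted p of 0.0390, and 13 alternatives lost that call. Cdkn1a, Bnip3, Pnpla2 and Igfbp1 were called higher than untreated in both phloridzin groups too. Igfbp1 lost its call in 4 alternatives in each of these groups, and at 0.5% Bnip3 lost its call in 5 and Pnpla2 in 1.

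Genes that insulin raises through SREBP-1c were called lower for 4 of 13 and higher for 0 in STZ livers, with a list median of −0.68. Over the 30 alternatives 1 to 8 were called lower and 0 to 1 higher. Acacb, an acetyl-CoA carboxylase, fell from 237 ± 38.4 to 94.6 ± 34.9 (2.35-fold, limma adjusted p = 0.00561) under all 30 alternatives. Scd1, the stearoyl-CoA desaturase, fell 4.38-fold (adjusted p = 0.0255) with values from 928 to 12604 among STZ mice, and lost its call without replicate 3, 4 or 5 of the STZ group or replicate 3 of the untreated group. Pklr (2.36-fold, lost in 10 alternatives) and Insig1 (1.61-fold, lost in 1, without replicate 5 of the STZ group) were the other 2. Srebf1 itself read −0.17 (adjusted p = 0.757) and Fasn −1.55 (adjusted p = 0.0761). Thrsp went the other way at 0.74 (limma adjusted p = 0.0912), the highest difference of the list. The list medians against untreated were −0.53 for 0.1% and −0.43 for 0.5% phloridzin, with 1 and 2 genes called lower.

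**Figure D5:**
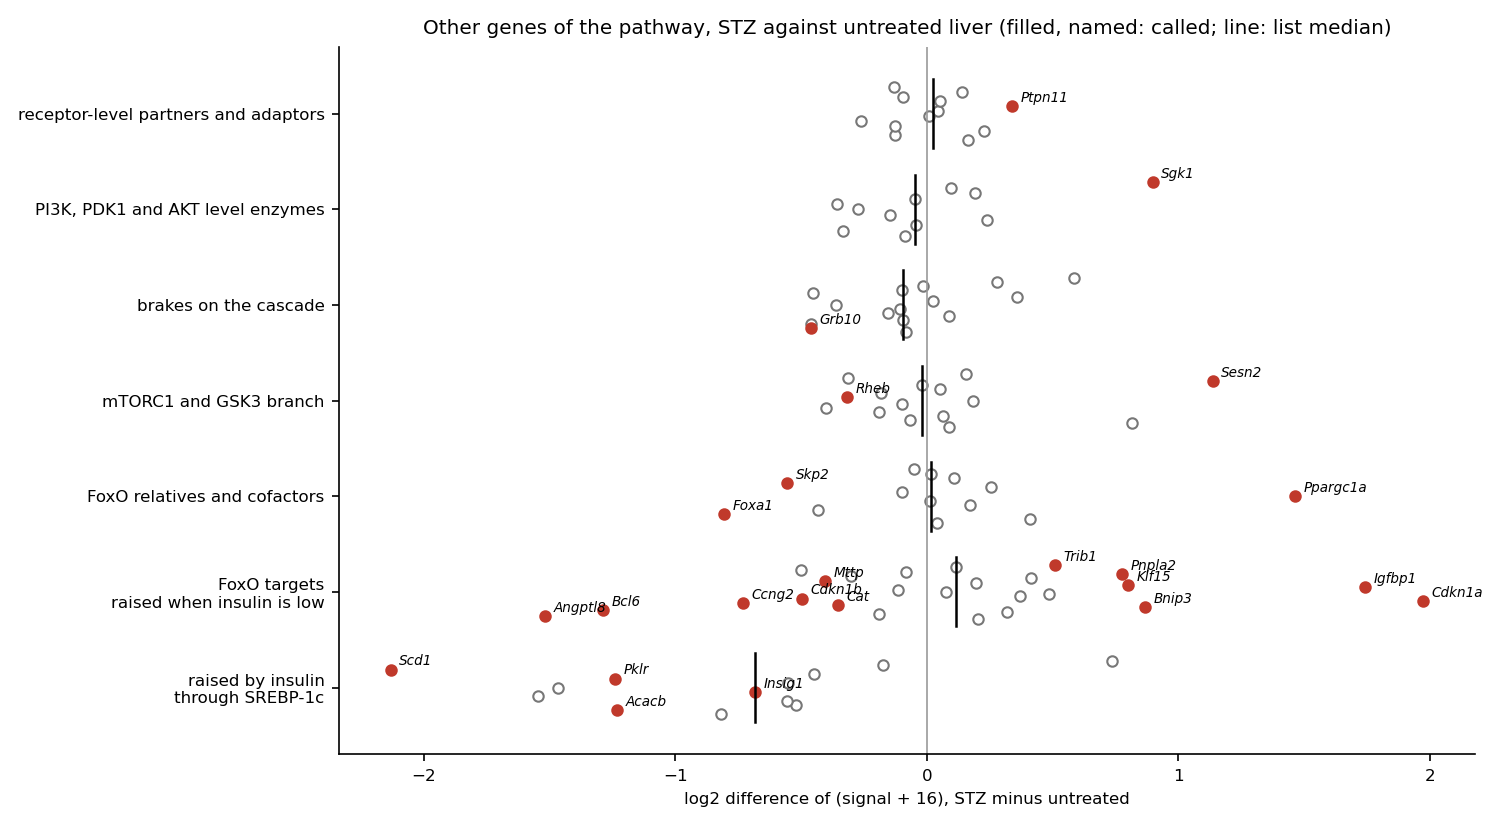
Log2 difference between STZ and untreated livers for the measured genes of each pathway list, 1 row per list, with points spread vertically for legibility, called genes filled and named, and a vertical line at each list median. The FoxO target row spreads to both sides of 0 (median 0.12), while the SREBP-1c row lies mostly below 0 (median −0.68).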

How the data were processed

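The authors deposited intensity, 1 linear signal per probe set, with a mean of 100 on every array after trimming 2% of probe sets at each end. No source used here names the software behind it. Control probe sets (64 of 45101), those with no gene (9160) and those with several (932) were left out, and platform symbols were set against RefSeq (34741 of 34945 found, 0 changed). Genes below the 40th percentile of mean signal (8.48) were dropped.

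A limma 3.58.1 model (R 4.3.3) of 4 group means on log2(signal + 16) had 16 residual and 4.56 prior degrees of freedom and gave 6 two-sided comparisons. It was tested on simulated data. Alternatives were quantile normalization, median centring, no or a 60th percentile filter, averaged probe sets, a pseudocount of 1, a trended robust prior, only the groups compared, each array left out and a replicate block. A filter at the background limit, the fit of single probe sets and the gene correlations were added after the data were seen. P-values measure the spread between mice.

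Named were the 10 genes, called list genes by smallest p, and the 3 genes nearest in pattern to a called one. Genes named without a call (Foxo4, Pck1, G6pc, Srebf1, Fasn, Thrsp) were chosen after their values were seen. The 10 genes, lists and tests were chosen with earlier results of these data known. Figures were drawn with matplotlib 3.10.9.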

Additional observations from a re-analysis of the deposited data

Results flagged for a closer look

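In each of 40 groups of 5 arrays, 1 per gene and group, the gap of the highest or lowest array to its nearest neighbour was divided by the range of the group and set against Dixon's critical value of 0.71. This test flags about 1 in 20 groups by chance. In 2 groups the value was above it. Akt2 in replicate 1 of the STZ group had a signal of 393, with the other 4 at 275 to 296 (ratio 0.8). Pdpk1 in replicate 3 of the 0.5% phloridzin group had a signal of 391, with the other 4 at 301 to 314 (ratio 0.842).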

How the results depend on the processing

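Over 30 alternatives, 1794 differences of the 10 genes were recomputed. No call was lost, 9 values were called under an alternative alone, and 87 uncalled values changed sign, none larger than 0.17 log2 units. For STZ against untreated, 1 of the 10 genes was called, and 2 with the replicate block (Foxo3 and Foxo1, the latter at an adjusted p of 0.0447). Leaving out arrays gave 1 to 2 of these genes and 1171 to 1991 of all genes, beside 1785, the fewest without replicate 5 of the STZ group. For 0.5% phloridzin against untreated, 0 of the 10 were called, 1 with the 60th percentile filter (Ptpn1) and 1 with averaged probe sets (Foxo3). Leaving out arrays gave 0 to 2 of these genes and 944 to 2188 of all genes, beside 1646, with 944, 980 and 1084 without replicates 1 and 5 of the 0.5% group and replicate 1 of the untreated group. Equal replicate numbers are different mice, whose deviations from group means correlated at −0.41 to 0.50 (13 of 30 pairs above 0.1), beside −0.53 to 0.54 (31 of 120) for unlike numbers. An array correlated best with its own number, among the 5 of another group, in 24 of 60 cases. Random matching would give about 1 in 5, so this is a hint, from the data and not from the design. Since not every same-numbered pair exceeded 0.1, the numbers were not taken as pairs. The replicate block gave Foxo3 adjusted p of 0.00172, 0.0111 and 0.0668 in STZ, 0.1% and 0.5% phloridzin against untreated, and 1923 genes called in the first. Median centring moved the median of all genes by 0.08 for STZ against untreated and its split from 893 higher and 892 lower to 1138 higher and 509 lower. Irs2 had 29 alternatives, since the stricter filter dropped it. Signal near background limits Irs2 most.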
